A study of Mus musculus with 7 samples.

Results

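The genes described are the cadherins whose mouse symbol is Cdh followed by a digit, without the endothelial gene Cdh5, and the protocadherins, whose symbols start with Pcdh. They were taken from whole-genome expression arrays by the symbol of the transcript each probe was designed against. The rule fits 92 genes of the reference gene table, and 63 of them had a named probe, out of 17145 named genes with a value. These 63 genes carried 89 probes, 19 genes had more than 1, and the brightest probe stood for the gene. Of the 63 genes 57 were bright enough to be tested, out of 13341 genes tested in all. By role the 63 comprised 5 type I and 11 type II classical cadherins, 5 other cadherins, 3 delta-1 and 5 delta-2 protocadherins, 3 other protocadherins outside the clusters, and 4, 22 and 5 genes of the alpha, beta and gamma protocadherin clusters.

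The tissue was the subpallium of the embryonic mouse forebrain, dissected as ganglionic eminences with septum. Donors were female CD-1 embryos at stage E12.5, each on an array of its own. The 4 controls carry no genotype in the labels beyond the word control. The 3 embryos labelled Otx2cKO, written cKO below, carried a floxed allele of the homeobox gene Otx2 with RxCre, a Cre line that acts across the forebrain but spares the cortical hem, the choroid plexus and the caudal dorsomedial tissue around them. The comparison sets messenger RNA in the subpallium of embryos labelled as conditional knockouts of Otx2 against that of controls. Controls 2 and 3 were littermates of cKO 1 and cKO 3 (litter 2), and each other embryo came from a litter of its own. Controls 1 and 2 shared slide 1 with cKO 1, and the other 4 arrays were on slide 2.

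Classical cadherins are calcium-dependent adhesion proteins that bind like cadherins on the neighbouring cell and hold the actin cytoskeleton through catenins. In the embryonic brain N-cadherin joins the progenitors at the ventricular surface, while type II cadherins are made in patches that mark divisions of the tissue and help cells of a division keep together. Protocadherins have longer ectodomains and no catenin-binding tail. The delta members guide axon growth and cell sorting, and the alpha, beta and gamma genes lie in tandem clusters from which single neurons express different combinations, which is known to let a neuron tell its own processes from those of others.

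The limma test across all genes called 0 of the 57 tested members at an adjusted p under 0.05, against 0.210% of all genes tested (0.0825% higher and 0.127% lower in the arrays labelled cKO). The smallest adjusted p among the members was 0.231, reached by the type II cadherin Cdh20, which was higher in the arrays labelled cKO, and by the delta-2 protocadherin Pcdh8, which was lower. The 250 bases before the annotated start of these 2 genes are printed because their arrays stood farthest apart for their spread. Otx2 is a homeodomain protein of the bicoid-like class, whose best known binding motif is TAATCC, and TAAT is the core shared by many homeodomain proteins. Capitals mark TAAT on either strand (ATTA on the printed one). The sequences come from RefSeq on GRCm38.p6, chr1:104768270-104768519 on the plus strand for Cdh20 and chr14:79771313-79771562 on the minus strand for Pcdh8, and are written in the direction of the gene.
Cdh20: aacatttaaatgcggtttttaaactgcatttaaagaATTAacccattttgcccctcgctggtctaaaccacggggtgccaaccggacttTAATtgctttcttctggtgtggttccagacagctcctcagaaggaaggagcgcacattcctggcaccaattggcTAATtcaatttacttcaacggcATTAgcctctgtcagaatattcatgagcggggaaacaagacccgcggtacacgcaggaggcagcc
Pcdh8: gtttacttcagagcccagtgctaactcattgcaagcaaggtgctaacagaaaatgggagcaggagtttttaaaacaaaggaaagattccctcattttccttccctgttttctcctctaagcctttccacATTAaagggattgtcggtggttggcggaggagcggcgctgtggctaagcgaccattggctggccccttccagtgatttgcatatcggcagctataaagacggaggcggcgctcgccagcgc
The Cdh20 window holds 4 matches to TAAT and the Pcdh8 window holds 1, and neither holds TAATCC on either strand. TAAT is common at this length: it occurs in 54.9% of 32851 RefSeq promoter windows of 250 bases, and TAATCC, which contains it, occurs in 6.25%. Promoter windows were read for 21 members outside the chromosome that holds the clusters. Their 24 windows held TAAT in 13 (54.2%) and TAATCC in 2 (8.33%), 1 window each of Cdh7 and Cdh26. Of the 6 members among these whose groups of arrays did not overlap, 3 held TAAT (Cdh10, Cdh20 and Pcdh8) and 0 held TAATCC. A match is a description of the letters and not a binding site.

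Values below are log2 signals relative to the 75th percentile of the array, so that 0 is the signal of the probe at that rank on that array. A difference is the mean of the arrays labelled cKO minus the mean of the controls on this scale, given with limma's standard error (SE). Levels of different probes are not comparable, because each probe has its own binding strength. The p-values measure the spread between these embryos, some of which share a litter. An exact permutation test of 3 against 4 arrays cannot give a two-sided p below 0.0571, so the model across all genes was used. In dissected tissue, fewer cells of a type and less RNA per cell cannot be told apart.

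The targeted gene ran against its label. Otx2 read 0.18, 0.54, 0.47 and 0.55 in the 4 controls and 1.77, 2.33 and 1.77 in the 3 arrays labelled cKO, a difference of 1.52 ± 0.17 (SE) or 2.87-fold higher, with a limma adjusted p of 0.0337. The difference was 1.27 to 1.61 over the 24 alternatives, and it was past the threshold in 10 of them. It missed the threshold in 14, including all 7 fits that leave out 1 array, with adjusted p from 0.0559 to 1.0. The place of this probe relative to the floxed exons was not given in the sources used here, so the directions below are those of the arrays as labelled. The subpallial markers Gsx2, Gad1 and Nkx2-1 were well above background on all 7 arrays, and Dlx1 and Dlx2 on all 6 arrays where their spots were not flagged. Between 68.4% and 72.2% of spots per array were well above background and 0 were saturated. Markers of other cell types varied from embryo to embryo. With the control mean set to 0, the per-array median of 16 mesenchyme and meninges markers was 0.40, -1.47, 0.22 and 0.74 in controls 1 to 4 and -1.31, 1.55 and -0.96 in cKO 1 to 3, and that of 10 endothelial markers was 0.08, -0.44, 0.15 and 0.24 against -0.38, 0.81 and -0.53. All 26 of these markers were tested and 0 were called. The signals of each list were also summed and the sum taken to log2, so that the brightest genes weigh most. This log2 sum spanned 2.70 to 4.96 (mesenchyme) and 3.18 to 3.87 (endothelial) in the controls. It spanned 2.67 to 5.76 and 3.03 to 3.99 in the arrays labelled cKO. Of 10 epithelial markers 6 were tested and 0 were called, with a median difference of 0.46. Their log2 sums were -1.90 to -1.14 in the controls and -1.65 to -0.35 in the arrays labelled cKO. Trp63, Esrp1 and Cldn6 of this list were well above background on 0 arrays, while Epcam, Krt8 and Krt18 were on all 7. Of 12 choroid plexus and hem markers 11 were tested and 0 were called, with a median difference of 0.05. Their log2 sums were 0.75 to 1.78 in the controls and -0.49 to 1.27 in the arrays labelled cKO. At a limma unadjusted p under 0.05, 1 was higher, where 3.94% of all genes were: Otx1, by 0.70 ± 0.18 (SE). At that level 3 were lower, where 7.10% of all genes were. These were Kcne2 (-0.98 ± 0.37), Rspo1 (-1.94 ± 0.75) and Rspo3 (-0.49 ± 0.19). In that list Ttr was well above background on 0 arrays, and Folr1, Prlr and Clic6 were on all 7.

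Most members with a probe gave signal in this tissue. Of the 57 tested members 49 were well above background on all 7 arrays. The 6 members below the filter were Cdh1 and Cdh16 (each well above background on 1 array, labelled cKO), Cdh23 (2 arrays, 1 of each group), and Cdh17, Cdh19 and Pcdhb1 (0 arrays). Cdh1 is E-cadherin of epithelia, Cdh16 and Cdh17 are known from kidney and gut, Cdh19 from Schwann cells and their precursors, and Cdh23 from the tip links of hair cells in the ear. No fold is given for these 6 genes.

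Few members differed by a large amount between the groups. Only 3 of the 57 tested members differed by at least 0.5 in either direction, Cdh13, Cdh6 and Cdh18, and none of them by an amount that passed the threshold. Among all 13341 genes tested 1085 differed by at least 0.5. The median absolute difference was 0.198 for the members and 0.133 for all genes. At an unadjusted p under 0.05 limma gave 8 members (14.0%), against 11.0% of all genes tested: Cdh20 was higher, and Cdh8, Cdh13, Pcdh8, Pcdha6, Pcdhb19, Pcdhb20 and Pcdhga9 were lower in the arrays labelled cKO. By direction that is 1 member higher, where 3.94% of all genes were, and 7 lower, where 7.10% of all genes were. In 10 members (17.5%) every array labelled cKO lay outside the range of the 4 controls, against 12.8% of all genes. Among these 10, Cdh20 and Cdh22 were higher (background 5.14%), and Cdh8, Cdh10, Pcdh8, Pcdh10, Pcdha6, Pcdhb20, Pcdhga4 and Pcdhga9 were lower (background 7.65%). With both directions pooled, the member shares in this fit lie near those of all genes. By direction the members leaned lower: 7 lower and 1 higher by limma unadjusted p, beside 947 and 526 among all genes. By array order 8 were lower and 2 higher, beside 1020 and 686 among all genes. The unadjusted count was 2 members with slide 1 alone (3.57%, against 3.13% of all genes in the same fit) and 4 with slide 2 alone (7.14% against 9.30%). It was 10 with litter 2 alone (17.9% against 6.54%). It became 16 without control 4 (28.1% against 11.0%) and 5 without cKO 3 (8.93% against 6.67%). With slide 2 alone, litter 2 alone, without control 4 and without cKO 3, 0 members were called. These fits called 0 of all genes, so they could not have called a member.

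**Figure D1:**
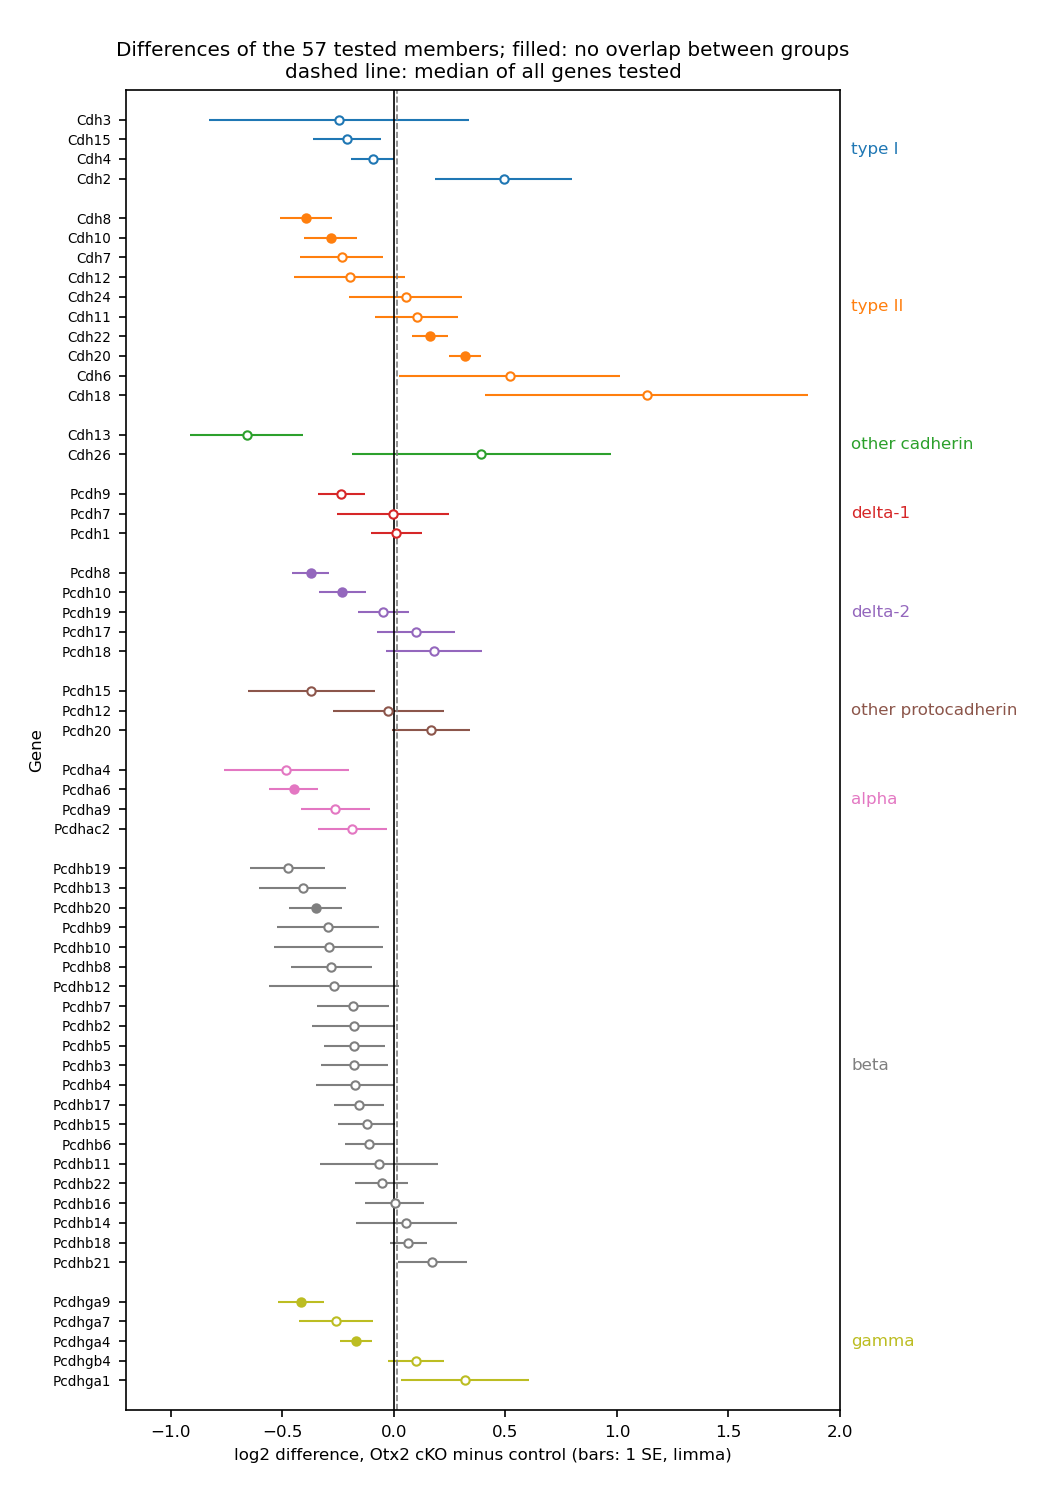
Differences of the 57 tested members between arrays labelled Otx2 cKO and control arrays. Each point is the log2 difference of 1 gene with a bar of 1 SE (limma, 3 against 4 arrays), coloured by role group and sorted within it; filled points are the 10 genes whose groups of arrays do not overlap, and the dashed line is the median of all 13341 genes (0.01). All 4 alpha genes and 17 of 21 beta genes lie left of 0.

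Among the type I cadherins 4 of 5 were tested, 0 were called, and 3 of the 4 differences were negative (median -0.15). Cdh2, the N-cadherin of neural progenitors, read 0.93, 2.07, 2.01 and 2.16 in the controls and 2.11, 2.41 and 2.33 in the arrays labelled cKO. Control 1 was the low array, and the other 6 lay close together. Its difference of 0.49 ± 0.31 (SE) had an adjusted p of 0.613. Without control 1 the difference was 0.20, with the same sign. Cdh4, R-cadherin, ranged from 2.17 to 2.38 in the controls and from 2.01 to 2.26 in the arrays labelled cKO and differed by -0.09 ± 0.10. Its other 2 probes gave 0.07 and 0.27, so the direction depends on the probe. Cdh15, M-cadherin of muscle, differed by -0.21 ± 0.15 over 3 controls (1 spot of control 4 was flagged) and 3 arrays labelled cKO. Cdh3, P-cadherin, was among the 3 members with the largest residual SD (0.89), with values at the floor of -7.45 on control 3, cKO 1 and cKO 3. It was well above background on 3 controls and 1 array labelled cKO, and its difference of -0.25 ± 0.58 had an adjusted p of 0.91.

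Among the type II cadherins 2 members were higher and 2 lower with groups that did not overlap, 40% of those tested against 12.8% of all genes. Of 11 genes 10 were tested, 6 differences were positive and 4 negative, with a median of 0.08. Cdh20 read -0.44, -0.53, -0.42 and -0.37 in the controls (mean -0.44 ± 0.07, SD, n = 4) and -0.13, -0.10 and -0.14 in the arrays labelled cKO (-0.12 ± 0.02, SD, n = 3). The groups did not overlap, and the gap between them was wider than the range of either. The difference was 0.32 ± 0.07 (SE), 1.25-fold higher, with a limma unadjusted p of 0.00298 and an adjusted p of 0.231. A separate probe for Cdh20 differed by 0.35, and the difference stayed between 0.22 and 0.36 over the 24 alternatives. Cdh22, named here for its array order, read 0.96, 1.14, 1.10 and 0.95 in the controls and 1.24, 1.15 and 1.20 in the arrays labelled cKO. The groups were separated by less than the range of the controls, and the difference was 0.16 ± 0.08 (adjusted p = 0.521).

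Cdh8 and Cdh10, type II cadherins of the developing forebrain, lay on the other side. Cdh8 read -0.84, -0.68, -0.77 and -1.02 in the controls (-0.83 ± 0.14, SD, n = 4) and -1.09, -1.41 and -1.16 in the arrays labelled cKO (-1.22 ± 0.17, SD, n = 3). The groups did not overlap, with control 4 closest to the arrays labelled cKO. The difference was -0.39 ± 0.12 (SE), 1.31-fold lower, with an unadjusted p of 0.0126 and an adjusted p of 0.311. Cdh10 read -0.59, -0.99, -0.97 and -1.02 in the controls and -1.17, -1.13 and -1.22 in the arrays labelled cKO. Control 1 was the high array, and the other controls lay just above the arrays labelled cKO. The difference was -0.28 ± 0.12 (adjusted p = 0.454).

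The remaining type II genes overlapped between the groups. Cdh18 had the largest residual SD of all members (1.11): it read -7.22, -5.10, -5.71 and -5.36 in the controls and -3.63, -6.17 and -4.34 in the arrays labelled cKO. Its difference of 1.13 ± 0.72 had an adjusted p of 0.624. Cdh6, a type II cadherin known from the lateral ganglionic eminence, read -6.37, -5.18, -4.05 and -5.25 against -4.95, -4.74 and -4.39 and differed by 0.52 ± 0.50. Cdh7 differed by -0.23, Cdh11 by 0.10 and Cdh24 by 0.05, each with overlapping groups. Cdh12 was well above background on 3 controls and 0 arrays labelled cKO, so it passed the filter through the controls alone. Its means of -6.88 and -7.08 lay near the floor (adjusted p = 0.811), and its difference ranged from -0.39 to 0.25 over the alternatives. Cdh11, which mesenchyme also makes, was highest on cKO 2 (1.17, against 0.41 to 0.84 on the other arrays), the array with the highest mesenchyme median; the part of these cells in the result was not tested.

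Among the other cadherins Cdh13 and Cdh26 were tested. Cdh13 is T-cadherin, which is held in the membrane by a lipid anchor and has no cytoplasmic tail. It read 2.55, 1.87, 1.93 and 1.74 in the controls and 1.80, 1.27 and 1.02 in the arrays labelled cKO. The groups overlapped, since cKO 1 lay above control 4, and cKO 2 and 3 lay below all controls. Its difference of -0.66 ± 0.25 (SE), 1.58-fold lower, had the largest size of any member on the negative side, with an unadjusted p of 0.0362 and an adjusted p of 0.417. Cdh26 spread widely among the controls, which read -6.00, -6.04, -4.31 and -4.25, and its difference of 0.39 ± 0.58 was smaller than its error.

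**Figure D2:**
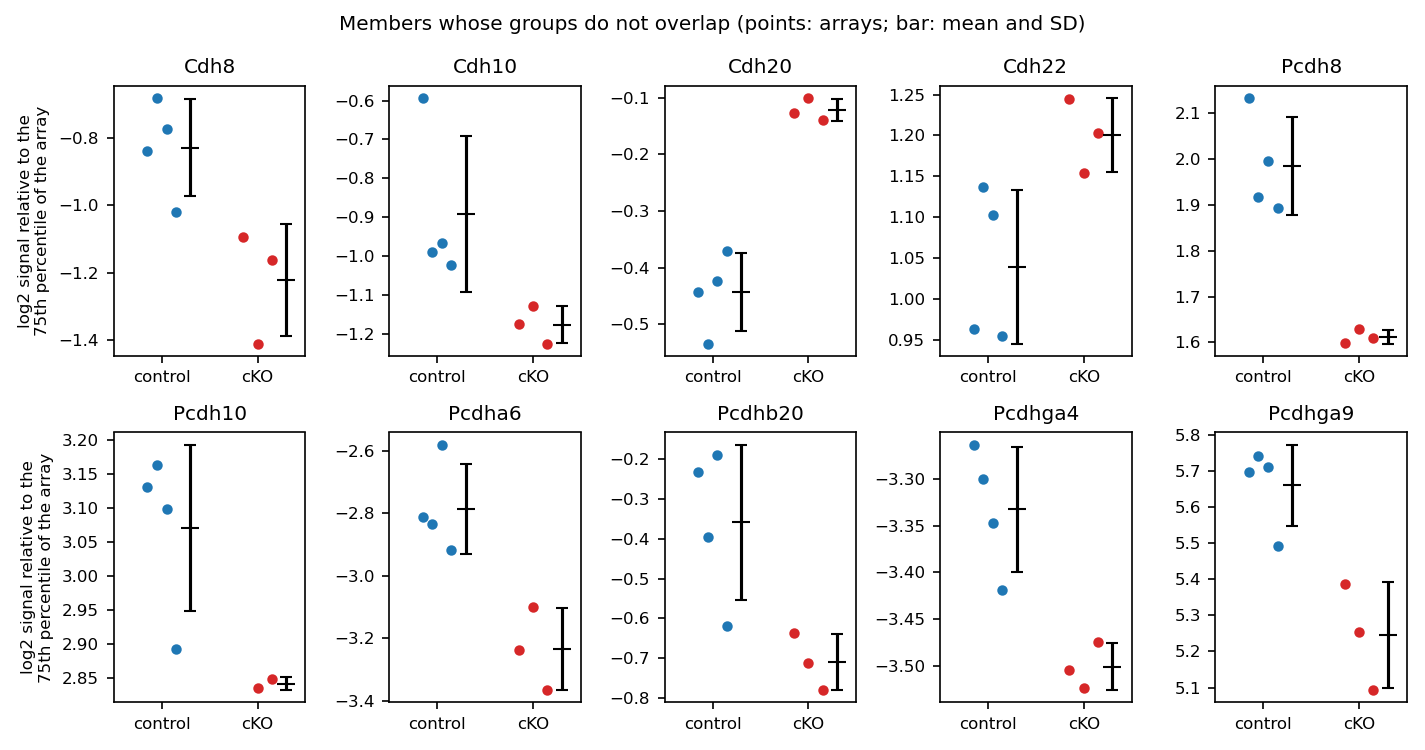
Values of the 10 members whose arrays labelled cKO all lie outside the range of the controls. Points are arrays (4 control, 3 labelled cKO, and 2 for Pcdh10, where cKO 1 was flagged), and the bar beside them is the mean with 1 SD; the y axis is the log2 signal relative to the 75th percentile of the array and is scaled for each gene. Cdh20 and Pcdh8 show the tightest groups relative to the gap.

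The delta-2 protocadherins were all tested. Pcdh8, the paraxial protocadherin that is also known from synapses, read 2.13, 1.92, 2.00 and 1.89 in the controls (1.98 ± 0.11, SD, n = 4) and 1.60, 1.63 and 1.61 in the arrays labelled cKO (1.61 ± 0.015, SD, n = 3). The groups were separated by 0.26, and the 3 arrays labelled cKO lay within 0.03 of each other. The difference was -0.37 ± 0.08 (SE), 1.29-fold lower, with an unadjusted p of 0.00293 and an adjusted p of 0.231, and it stayed between -0.47 and -0.32 over the 24 alternatives. Pcdh10, known from axons of the basal forebrain, read 3.13, 3.16, 3.10 and 2.89 in the controls and 2.83 and 2.85 in cKO 2 and 3, with cKO 1 flagged and left out. The difference over those 6 arrays was -0.23 ± 0.11 (adjusted p = 0.508), and 2 other probes for the gene gave -0.12 and -0.03. Pcdh17 differed by 0.10 and Pcdh18 by 0.18 ± 0.21, and Pcdh18 was highest on cKO 2 (0.17, against -0.73 to -0.20 elsewhere), the array highest in mesenchyme and endothelial markers, whose part was not tested. Pcdh19, the gene mutated in an X-linked epilepsy, differed by -0.05 ± 0.11 on its brightest probe. Its dimmer probe read -2.21, -2.22, -2.19 and -2.45 in the controls and -2.77, -2.96 and -2.65 in the arrays labelled cKO, which did not overlap and differed by -0.53. The probes of this gene thus gave differences of unequal size.

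The 3 delta-1 protocadherins were tested and none of their groups separated. Pcdh9 read -0.43, -0.73, -0.37 and -0.57 in the controls and -0.81, -0.81 and -0.67 in the arrays labelled cKO, a difference of -0.24 ± 0.11 (adjusted p = 0.475), and its other probes gave -0.11 and -0.16. Pcdh1 and Pcdh7 differed by 0.01 ± 0.11 and by -0.005 ± 0.25, so neither has a direction. Of the other protocadherins outside the clusters, Pcdh12, which endothelial cells make, was at 0.89 on cKO 2 and between -0.07 and 0.38 on the other 6 arrays. Cdh5, the endothelial cadherin that the rule leaves out, was likewise highest on cKO 2 (1.20, against -0.15 to 0.53). Pcdh15, a partner of Cdh23 in the ear, differed by -0.37 ± 0.28 and was well above background on 3 controls and 1 array labelled cKO. Pcdh20 differed by 0.17 ± 0.17.

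**Figure D3:**
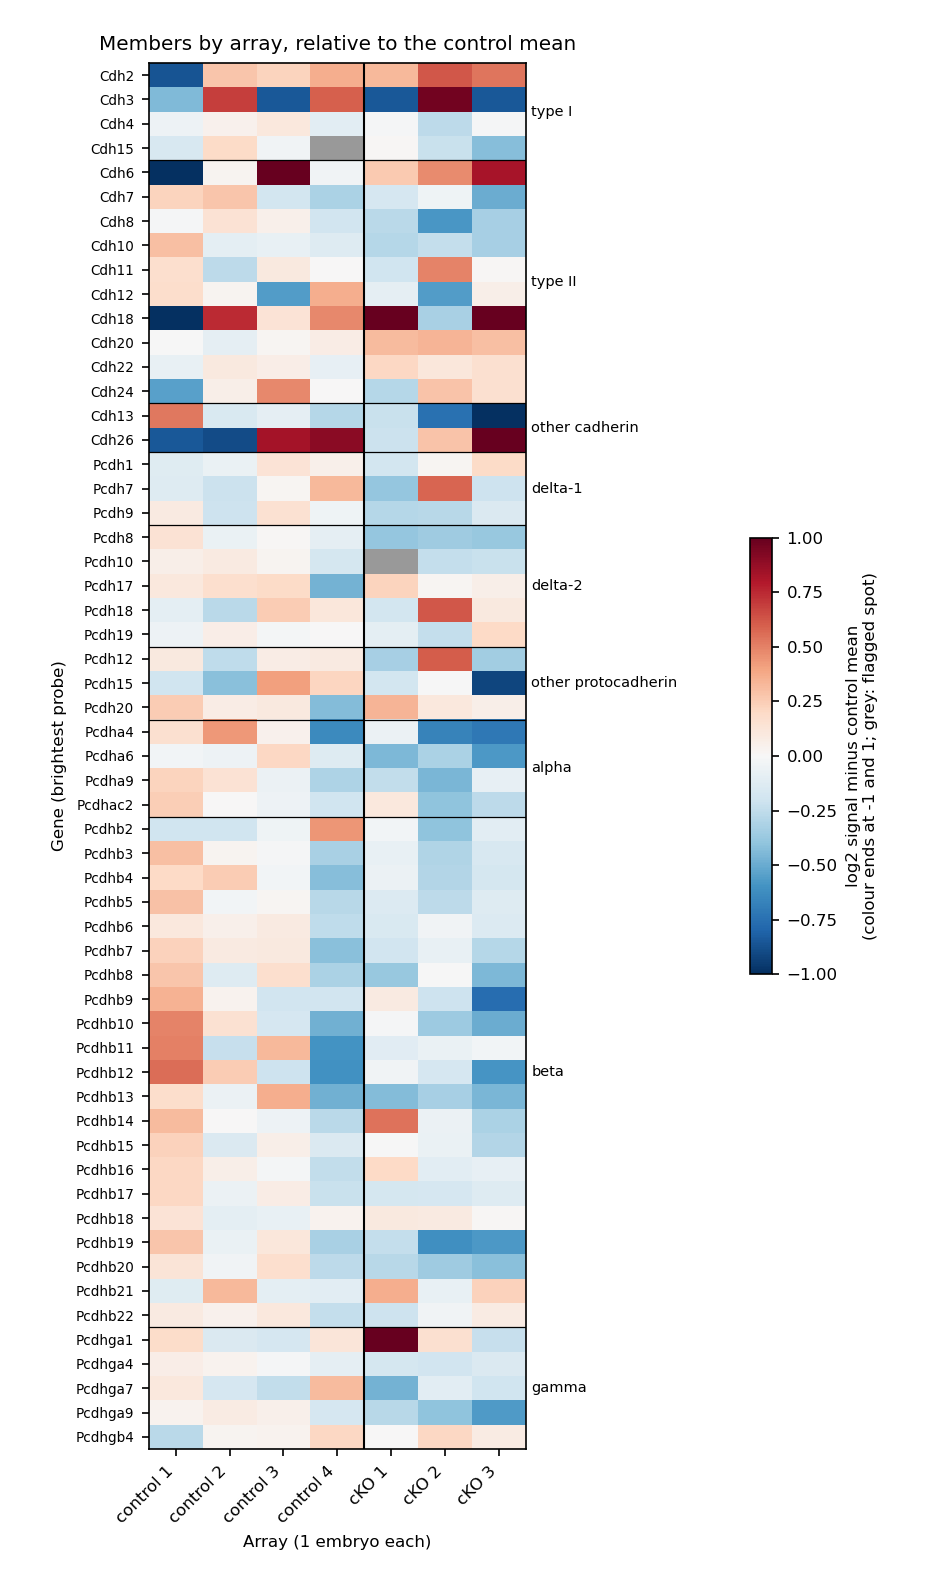
Each tested member on each array. Rows are genes by role group, columns are the 7 arrays, and the colour is the log2 signal minus the mean of the controls (blue below, red above, ending at -1 and 1; grey is a flagged spot). In the beta cluster control 1 is red and control 4 is blue for most genes.

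Most of the clustered protocadherins read lower in the arrays labelled cKO, by small amounts. Of 30 tested cluster genes 24 (80.0%) had a negative difference, with a median difference of -0.18, while 46.7% of all genes tested were lower and their median was 0.01. Of the 27 tested members outside the clusters 15 were lower and their median was -0.02. None of the 30 was called, against 0.210% of all genes tested. At a limma unadjusted p under 0.05 there were 4 (13.3%, against 11.0% of all genes). In 4 (13.3%, against 12.8%) the groups did not overlap, so both shares lie near those of all genes. The median was -0.35 for the alpha genes (4 of 4 lower), -0.18 for the beta genes (17 of 21 lower) and -0.17 for the gamma genes (3 of 5 lower). All 3 medians were negative in each of the 24 alternatives, from -0.45 to -0.23, from -0.27 to -0.06 and from -0.27 to -0.08. These alternatives reuse the same arrays and are not independent of each other. Scaling to the median of each array in place of the 75th percentile shifted the median of all genes by -0.09, and the median of all 41 tested protocadherins lay 0.19 below that of all genes, with a range of 0.09 to 0.26 below over the alternatives.

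The beta genes were high and low on the same arrays. In the beta cluster control 1 was the highest of the 7 arrays for 14 of 21 genes and control 4 the lowest for 11. Control 1 lay above control 4 in 19 of 21 genes, and control 4 lay below all arrays labelled cKO in 12. With the control mean set to 0, the per-array median of the beta genes was 0.23, 0.01, 0.02 and -0.27 in controls 1 to 4 and -0.07, -0.16 and -0.18 in cKO 1 to 3. The spread between 2 controls was thus larger than the difference between the groups, and the groups overlapped. Without control 1 the beta median was -0.08, and without control 4 it was -0.27. It was -0.25 with slide 1 alone, -0.06 with slide 2 alone and -0.16 with litter 2 alone.

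**Figure D4:**
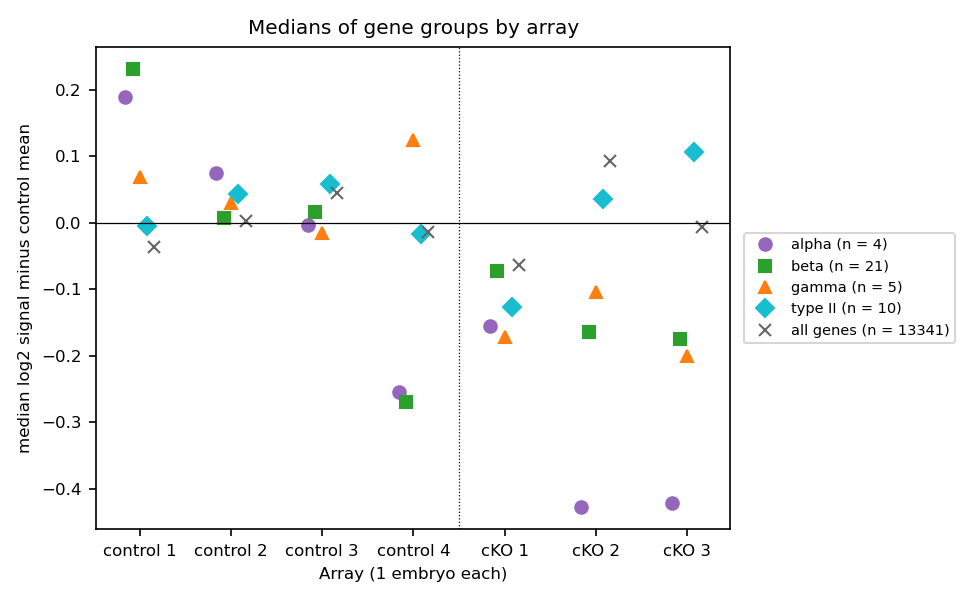
Medians of gene groups on each array. The y axis is the median over the genes of a group of the log2 signal minus the control mean, for the alpha, beta and gamma clusters, the type II cadherins and all genes tested. The beta medians of the 3 arrays labelled cKO (-0.07 to -0.18) lie between those of control 1 (0.23) and control 4 (-0.27), and the 3 gamma medians (-0.10 to -0.20) lie below all 4 controls.

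The alpha cluster was tested in Pcdha4, Pcdha6, Pcdha9 and Pcdhac2. Its per-array median was 0.19, 0.08, 0.00 and -0.25 in the controls and -0.15, -0.43 and -0.42 in the arrays labelled cKO, so cKO 1 lay above control 4. Pcdha6 read -2.81, -2.83, -2.58 and -2.92 in the controls (-2.79 ± 0.14, SD, n = 4) and -3.24, -3.10 and -3.36 in the arrays labelled cKO (-3.23 ± 0.13, SD, n = 3). These groups did not overlap, and the difference was -0.45 ± 0.11 (SE), 1.36-fold lower, with an unadjusted p of 0.00493 and an adjusted p of 0.263. Pcdha4 read -4.14, -3.86, -4.26 and -4.93 against -4.36, -4.97 and -5.01 and differed by -0.48 ± 0.28, and Pcdha9 differed by -0.26 ± 0.16. Pcdhac2, a variant of the C type that most neurons share, differed by -0.19 ± 0.16. Alpha transcripts share their 3′ constant exons, and gamma transcripts do likewise. The place of each probe in its transcript was not given in the sources used here, so a value can stand for a single variant or for the whole cluster.

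The beta genes are single-exon paralogs of similar sequence, so their probes can take up signal from near-identical neighbours and a value for a named beta gene is uncertain. Pcdhb20 read -0.23, -0.40, -0.19 and -0.62 in the controls and -0.64, -0.71 and -0.78 in the arrays labelled cKO. The groups missed each other by 0.02, at control 4 and cKO 1, and the difference was -0.35 ± 0.12 (SE), 1.27-fold lower, with an adjusted p of 0.368. Pcdhb19 read -2.39, -2.74, -2.56 and -3.0 against -2.91, -3.29 and -3.25, so control 4 lay below cKO 1. It differed by -0.48 ± 0.17 (unadjusted p = 0.0261, adjusted p = 0.38). Pcdhb13 differed by -0.41 ± 0.20, again with control 4 the lowest of all arrays. The 4 beta genes with a positive difference were Pcdhb14, Pcdhb16, Pcdhb18 and Pcdhb21, at 0.06, 0.00, 0.07 and 0.17.

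In the gamma cluster Pcdhga9 read 5.70, 5.74, 5.71 and 5.49 in the controls (5.66 ± 0.11, SD, n = 4) and 5.39, 5.26 and 5.09 in the arrays labelled cKO (5.24 ± 0.15, SD, n = 3). The groups did not overlap, and the difference was -0.42 ± 0.10 (SE), 1.33-fold lower, with an unadjusted p of 0.00538 and an adjusted p of 0.268. The other 3 probes named for this gene gave -0.23, -0.26 and 0.13, so the dimmest probe ran the other way. Pcdhga4 read -3.26, -3.30, -3.35 and -3.42 in the controls and -3.50, -3.52 and -3.47 in the arrays labelled cKO, a separation of 0.06 and a difference of -0.17 ± 0.07 (adjusted p = 0.453). Pcdhga7 differed by -0.26 ± 0.16 with overlap. Pcdhga1 and Pcdhgb4 had positive differences of 0.32 ± 0.29 and 0.10 ± 0.12.

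The clusters lie in tandem on chromosome 18. The 303 tested genes of that chromosome that are not members had a median difference of 0.01, with 44.9% lower. The 21 nearest tested genes before, between and after the clusters, picked after the cluster values were seen, had a median of 0.01, and 10 of the 21 were lower. In 1 of these 21 genes the groups did not overlap, beside 12.8% of all genes tested. That gene was Rell2, which lies beyond the gamma cluster. It read -0.05, -0.42, -0.25 and -0.66 in the controls and -0.75, -1.35 and -1.31 in the arrays labelled cKO. Its difference was -0.79 ± 0.20 (limma unadjusted p = 0.00598, adjusted p = 0.277). Taf7, which lies between cluster genes, differed by 0.11 ± 0.14.

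Neurons are where the clustered protocadherins are known to act. Of 10 neuron markers, all tested, 0 were called and 3 were lower at a limma unadjusted p under 0.05, where 7.10% of all genes were. Their median difference was -0.16, and the log2 of their summed signals was 7.69 to 7.85 in the controls and 7.48 to 7.63 in the arrays labelled cKO. Of 10 progenitor markers 0 were called and 1 was higher at that level, where 3.94% of all genes were. Their median was 0.17, with sums of 7.98 to 8.25 and of 8.19 to 8.48. Gad1 and Gad2, the enzymes that make GABA in subpallial neurons, were lower on all 3 arrays labelled cKO than on all 4 controls, by -0.67 ± 0.13 and -0.34 ± 0.08 (SE), with adjusted p of 0.171 and 0.243. Of 10 pallium markers 9 were tested and 0 were called, with a median of -0.02. Their sums were 5.11 to 5.41 in the controls and 4.74 to 4.87 in the arrays labelled cKO. Neurod2 and Neurod6 were lower, by -0.80 ± 0.18 and -0.76 ± 0.16 (SE). Emx2 and Neurog1 were higher, by 0.56 ± 0.13 and 0.43 ± 0.15. The part of any of these cells in the cluster values was not tested.

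The partners of these adhesion proteins were read from 7 lists of 73 genes, of which 66 had a probe and 60 were tested. None of the 60 was called, and 4 (6.67%) had a limma unadjusted p under 0.05, against 11.0% of all genes tested. In 3 (5%) the groups did not overlap, against 12.8% of all genes. By list the tested genes with a higher and a lower level in the arrays labelled cKO numbered 6 and 6 for catenins and plaque proteins, 5 and 5 for other members of the cadherin superfamily, 2 and 2 for nectins, 5 and 3 for cadherin proteases, 6 and 5 for the WAVE complex and protocadherin tail kinases, 8 and 2 for regulators of the clustered genes, and 2 and 3 for repressors of E-cadherin transcription. The list medians lay between -0.07 and 0.07, beside 0.01 for all genes.

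Among the catenins Plekha7, a junction protein that ties cadherin complexes to microtubules, differed by 0.45 ± 0.20 (adjusted p = 0.472). Ctnnd2, delta-catenin of neurons, read 1.92, 1.73, 1.94 and 1.70 in the controls and 1.62, 1.63 and 1.65 in the arrays labelled cKO and differed by -0.19 ± 0.09 without overlap. Celsr3, a cadherin of the planar polarity pathway needed for forebrain axon tracts, read 0.95, 0.92, 0.91 and 0.84 against 0.77, 0.40 and 0.61. Its groups did not overlap, and its difference of -0.31 ± 0.10 (SE) had an unadjusted p of 0.0183 and an adjusted p of 0.347. Fjx1, a homologue of the fly kinase that acts on Fat cadherins, differed by -0.48 ± 0.29.

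The nectins, which seed adherens junctions beside cadherins, gave -0.26 ± 0.15 for Nectin2 and 0.24 ± 0.26 for Nectin1, where cKO 2 was flagged and left out. Of the proteases Mmp14, a membrane-bound metalloprotease, read 2.90, 2.99, 3.05 and 3.23 in the controls and 3.20, 3.71 and 3.37 in the arrays labelled cKO and differed by 0.38 ± 0.14 (unadjusted p = 0.032, adjusted p = 0.405). Its highest value was on cKO 2, the array highest in mesenchyme markers, whose part was not tested. Adam17, a sheddase, differed by 0.25 ± 0.18. Of the WAVE complex, which links delta-2 protocadherin tails to actin, Nckap1 differed by 0.36 ± 0.15 (unadjusted p = 0.0493, adjusted p = 0.451) and Wasf1 by 0.64 ± 0.38, with a control 1 value of 0.81 against 1.72 to 2.60 on the other arrays.

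Among the regulators of the clustered genes, CTCF and cohesin bring cluster promoters to their enhancers, and Wapl releases cohesin from DNA. Wapl read 0.90, 0.72, 0.78 and 0.72 in the controls and 1.02, 0.90 and 0.99 in the arrays labelled cKO. The groups were separated by less than 0.01, and the difference was 0.19 ± 0.08 (unadjusted p = 0.048, adjusted p = 0.451). Stag2, a cohesin subunit, differed by 0.14 ± 0.12. Of the repressors of E-cadherin transcription Zeb2, which interneurons of the ganglionic eminence also need, differed by -0.25 ± 0.12 (adjusted p = 0.478) and Zeb1 by -0.07 ± 0.07.

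Agreement between probes gives a second view of the members. In 14 genes at least 2 probes were well above background on 3 or more arrays. All probes gave the same sign in 8 of them, among them Cdh20, Pcdh9, Pcdh10, Pcdh19 and Pcdhb13. The other 6 (Cdh4, Cdh11, Pcdh7, Pcdhb5, Pcdhb16 and Pcdhga9) held probes of both signs.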

How the data were processed

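Amplified, Cy3-labelled RNA from 7 dissected brains was read on single-colour Agilent mouse arrays, per the labels' protocols. The deposited intensity of each spot (processed signal) was background-subtracted with Agilent Feature Extraction 10.7.3.1, per the file headers; version 10.5 is named in the submitters' processing notes. A second deposited table holds log2 values with column medians of 7.61 to 7.64 and a shared maximum of 18.8. Its rank order followed the median spot signal (rank correlation at least 0.99996), and its centring is not stated in the sources used here; it served as an alternative.

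Control spots and spots marked as outliers were left out, and spots of a probe were averaged. Each array was divided by its 75th percentile, floored at a common log2 value of -7.45 and taken to log2. Probes were named through RefSeq accessions of the GRCm38.p6 gene table, which gave 24844 of 41174 probes a single symbol, 0 probes several and 16330 probes no symbol. The probe with the highest mean log2 signal stood for a gene, and 17145 named genes had a value. Testing required well-above-background signal of the chosen probe on 3 or more arrays, and unflagged spots on 2 or more arrays of each group, which left 13341 genes. The groups were compared by limma 3.58.1 under R 4.3.3 (eBayes after lmFit, no covariate), with Benjamini-Hochberg adjustment over all 13341 genes and a threshold of 0.05. The code was tested on simulated data.

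The members, their role groups, the partner lists and the marker lists were chosen with earlier results of these data known. Values are given for the 3 members of each role group with the smallest unadjusted p, for the 3 members with the largest residual SD, and for the 2 partners of each list with the smallest unadjusted p. Members past the threshold, or with groups that did not overlap and a difference of at least 0.5, would have been added, and 0 members met either rule. Members named for array order, for a separation under 0.5 or for an outlying array, and the genes next to the clusters, were picked after their values were seen. The 24 alternatives cover background correction, scaling, the authors' table, the filter on dim probes, the probe rule, flagged spots, the variance model, slide, litter, the replicate number, a mesenchyme covariate and each array left out. The column of mean spot signals that the normexp alternative was planned on is absent from the files used here, so median spot signals with an offset of 50 took its place. Precision is limited by the number of arrays.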

Additional observations from a re-analysis of the deposited data

Results flagged for a closer look

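Each member, and the median of each role group, was searched for a control array that stood apart from the other 3, meaning that its gap to the nearest control, as a share of the whole range, was above Dixon's critical value for 4 samples. Chance gives such an array in about 1 in 20 sets of 4. Of 68 sets 7 had one (10.3%). Control 1 stood apart for Cdh2, low at 0.9289, and for Cdh10, high at -0.5942. Control 4 stood apart for Pcdh17, low at 1.0864 where the other controls read 1.66 to 1.75, and for Pcdhb6, low at -1.4052 where they read -1.10 to -1.05. Control 2 stood apart for Pcdhb21, high at -0.2938 where the others read -0.73 to -0.71. It also stood apart for the endothelial gene Pcdh12, low at 0.0273 where the others read 0.36 to 0.38, and for the median of the other protocadherins, -0.2573 where the others read 0.09 to 0.10. On control 2 that median is the Pcdh12 reading itself, so the same reading was flagged both times. The 68 sets include medians built from the members and are not independent. The endothelial marker median of control 2, at -0.44, was the lowest of the controls too, and its part in the Pcdh12 value was not tested.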

How the results depend on the processing

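None of the members or partners was called in any of the 24 alternatives, and the unadjusted count of members ranged from 2 to 17. The 8 members under an unadjusted p of 0.05 kept their direction in all 24: Cdh20, Cdh8, Pcdha6 and Pcdhga9 were under it in 22 of them, Pcdh8 in 23, Pcdhb20 in 18, Cdh13 in 16 and Pcdhb19 in 15. In 9 of the 24 alternatives no gene at all was called, so those 9 could not have called a member or a partner. The 24 are not independent: the variance model and the filters on dim probes leave the difference of a tested gene unchanged. Litter as a block gave the same alpha, beta and gamma medians as litter 2 alone. Genes called among all 13341, 28 as reported, numbered 46 with normexp, 43 in the authors' table, 15 without the filter on dim probes, 50 with a variance trend, 16 with slide as a fixed block, 17 with the mesenchyme covariate, 0 with slide 1 alone, slide 2 alone, litter as a block or litter 2 alone, and 0 to 25 with 1 array left out. The cause was not tested. The replicate block, with the number in the titles as a fixed term, called 0 genes and gave 17 members under an unadjusted p of 0.05 (29.8%, against 11.2% of all genes in that fit). Number 4 occurs among the controls alone. The block thus gave the same alpha, beta and gamma medians as leaving out control 4 (-0.43, -0.27 and -0.15). Arrays of the same number did not pair: their deviations correlated at 0.11, -0.53 and 0.03, and not every array correlated best with its own number. Of the 57 tested members 23 changed sign under 1 or more alternatives. In 3 of these the reported difference exceeded its SE: Pcdh15, Cdh6, which reached -0.05 and kept its sign in 22 of 24, and Pcdhga1, which reached -0.03 and kept its sign in 22. Pcdh1 read -0.0865 with median centring, -0.00245 with quantile normalization, -0.0329 in the authors' table, -0.0272 with slide as a fixed block, -0.0021 with slide as a random block, -0.087 with slide 1 alone and -0.0302 with litter as a block and with litter 2 alone. Pcdh7 read 0.0517 with normexp, 0.214 over all its probes, 0.0143 with slide 2 alone, 0.103 with the replicate block and 0.0528 with the covariate. Pcdh12 read 0.0474 with slide 2 alone, 0.00595 with the replicate block and 0.0358 with the covariate. Pcdh18 read -0.035 with litter as a block and with litter 2 alone, Pcdh15 read 0.130 with slide 1 alone, Cdh4 read 0.0826 over all its probes, and with slide 2 alone Cdh26 read -0.174 and Cdh3 read 0.184. Leaving out 1 array gave -0.079 to 0.107 for Pcdh1, -0.297 to 0.186 for Pcdh7, -0.340 to 0.139 for Pcdh12, -0.043 to 0.361 for Pcdh18 and -0.851 to 0.0567 for Cdh3. The median of the type II cadherins was -0.02 with median centring, -0.09 with slide 1 alone, -0.03 with litter 2 alone and -0.04 without cKO 2. Members near background are limited by signal: Cdh3, Cdh12, Pcdh15 and Pcdhgb4 were well above it on 3 to 4 arrays.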
